A study of Homo sapiens with 10 samples.

Results

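The transcripts of 10 genes that encode subunits of the Polycomb repressive complexes were followed in 10 RNA sequencing libraries of cultured human cells. The genes are EZH1, EZH2, EED, SUZ12, JARID2, MTF2, PHF19, BMI1, RING1 and RNF2, and they were chosen by name. Each has its own row among the 60651 gene rows of the count table, and all 10 passed the filter on low counts that 22495 genes passed. The libraries form 5 groups of 2: HT29 cells with VXN at 10 µM, HT29 cells with DMSO, t-hESC cells with VXN at 10 µM, t-hESC cells with BIX at 1 µM, and t-hESC cells with DMSO. HT29 is an established colorectal cancer line, and the labels call t-hESC cells transformed pluripotent stem cells. DMSO is the solvent control, BIX is commonly the name of a compound that blocks G9a and GLP, enzymes that methylate histones, and VXN is a code name that stands without explanation in the labels. The series title concerns drugs that alter dimethylation of histone H3 at lysine K9. No genetic change is given for either line, and the only treatment time in the labels is 48 hours, in a field that names DMSO for all samples, so group, compound and dose come from the titles.

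Polycomb proteins keep genes silent through marks on histones. Polycomb repressive complex 2 (PRC2) methylates histone H3 at the residue K27 through one of the alternative catalytic subunits EZH1 and EZH2. It needs EED, which binds the finished mark, and SUZ12, the scaffold of the complex. JARID2, MTF2 and PHF19 are accessory subunits that help bring PRC2 to chromatin, with MTF2 and PHF19 belonging to the Polycomb-like family. Polycomb repressive complex 1 (PRC1) attaches ubiquitin to histone H2A through the paired ligases RING1 and RNF2, also called RING1A and RING1B. BMI1 is one of the alternative PCGF subunits of PRC1, and it is known for repressing the INK4/ARF locus that holds CDKN2A and CDKN2B. In pluripotent cells PRC2 and its accessory subunits are known for holding developmental genes silent, and in dividing cells EZH2 and EED are known targets of the E2F factors.

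Gene counts ran from 13137026 to 24492838 per library, and a count of 0 allows up to 0.122 to 0.228 CPM, for counting error only. CPM bring each count to a common library size, taken over gene rows with TMM factors, a method that assumes most genes keep their level. The series design calls the libraries of a group biological replicates, so that p-values reflect the spread of these libraries and nothing wider. That spread was not far above counting error alone, with a chi-square of 1.18 to 1.81 per degree of freedom within groups. The spread used for each gene was also largely borrowed from other genes. The lines kept apart by their markers. The summed level of 8 pluripotency markers was 11.1 to 13.3 CPM in HT29 cells with VXN, 5.55 to 5.60 CPM in HT29 cells with DMSO, 3828 to 3844 CPM in t-hESC cells with VXN, 4204 to 4286 CPM with BIX and 4243 to 4318 CPM with DMSO, with ZFP42 at or near 0 in both lines. Of the list of 8 fibroblast genes the sum was 7.55 to 9.74 CPM in HT29 cells with VXN and 3.28 to 4.28 CPM with DMSO. In t-hESC cells it was 948 to 950 CPM with VXN, 804 to 846 CPM with BIX and 681 to 682 CPM with DMSO. Most of the t-hESC sum was THY1, with group means from 587 to 856 CPM. COL1A1, COL1A2 and PDGFRB were present too, with t-hESC group means of 33.2 to 42.5, 39.1 to 69.6 and 15.5 to 18.5 CPM. In HT29 cells these had group means of at most 4.82, 1.36 and 0.192 CPM. COL3A1, DCN and LUM had at most 0.63 CPM in each t-hESC library. Of 8 colon epithelial markers HT29 cells held KRT20, LGALS4, VIL1, EPCAM and CEACAM5. CDX1 and CDH17 stayed under 0.6 CPM and CDX2 under 1.8 CPM in each library. The summed level of the 8 was 1666 to 1684 CPM in HT29 cells with DMSO and 1985 to 1993 CPM with VXN. In t-hESC cells it was 125 to 127 CPM with DMSO, 114 to 117 CPM with VXN and 114 CPM with BIX. EPCAM made up most of that t-hESC sum, with group means from 104 to 116 CPM, against 516 and 592 CPM in HT29 cells. EPCAM was thus present in both lines. VIL1 had t-hESC group means of 6.73 to 9.36 CPM, and KRT20, LGALS4 and CEACAM5 of at most 0.451 CPM. An RNA level of whole cultures cannot tell fewer cells of a type from less RNA per cell. Levels are compared below only between samples for the same gene, since transcript lengths were not used here.

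The 10 genes differed widely in how far their level moved over the 5 groups. RNF2 moved least, with the highest group mean 1.19 times the lowest, followed by EED at 1.54, RING1 at 1.75, EZH1 at 1.84 and EZH2 at 2.02 times. PHF19 spanned 2.21 times, MTF2 3.83 times and SUZ12 5.19 times. JARID2 and BMI1 spanned 12.4 and 23.2 times, and for both the step lay between the lines. For SUZ12, JARID2, MTF2 and BMI1 every HT29 library lay well to one side of every t-hESC library. RING1 also parted the lines, narrowly, with its lowest HT29 library at 35.2 CPM and its highest t-hESC library at 34.7 CPM. The libraries of the lines overlapped for EZH2 and RNF2, and for EZH1, EED and PHF19 the order of the group means mixed the lines.

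**Figure D1:**
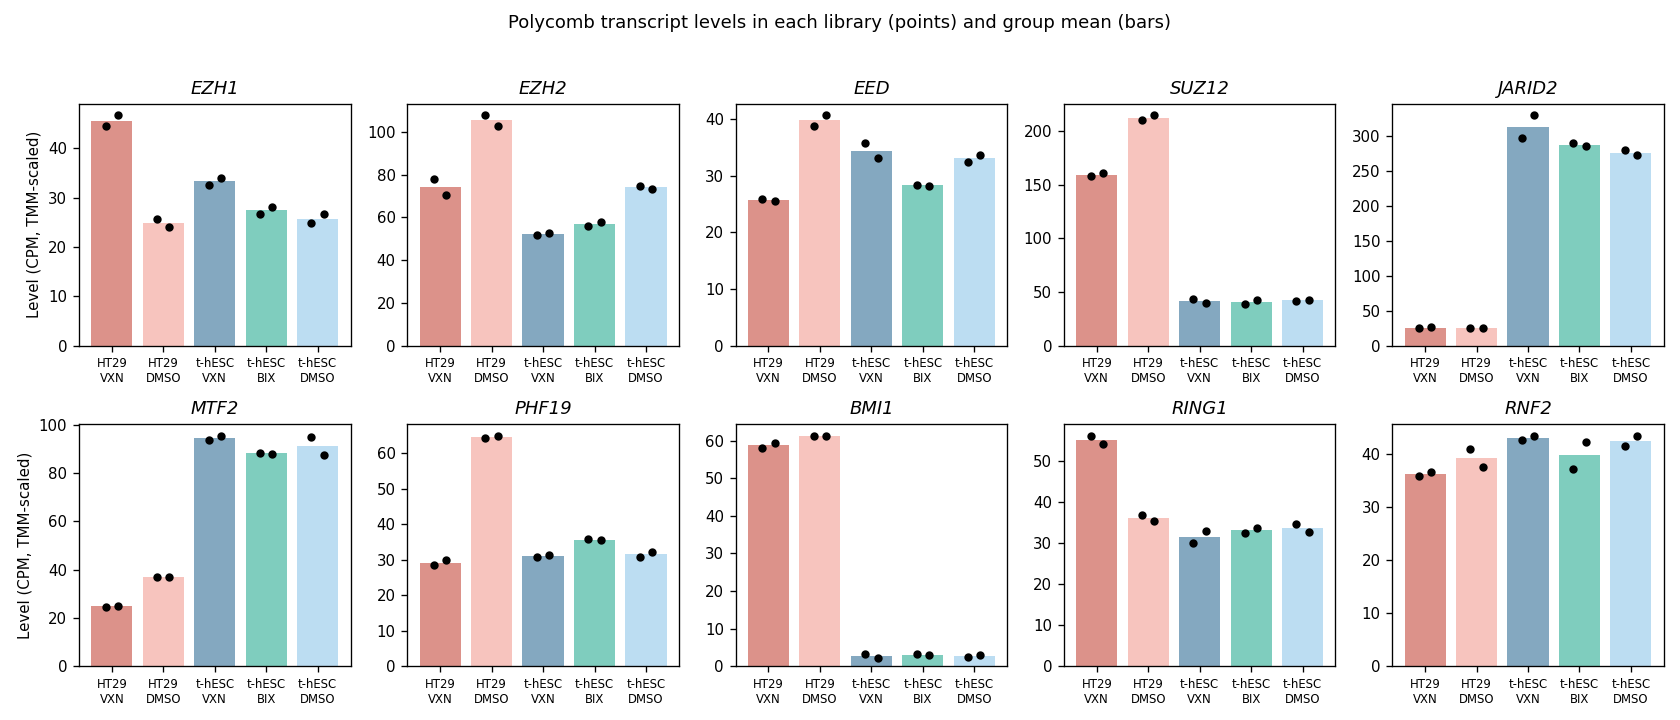
TMM-scaled CPM of each Polycomb gene (y axis, from 0, own scale per gene) in the 5 groups (x axis). Bars are group means and points are the 2 libraries of a group. BMI1, SUZ12, JARID2 and MTF2 split by line, PHF19 stands at 64.7 CPM in HT29 cells with DMSO against 29.2 to 35.7 CPM in the other groups, and EZH2 is lower under each compound than under DMSO in its line.

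The first comparison asked how VXN altered these transcripts in HT29 cells. The catalytic pair moved in opposite directions, the core and most accessory PRC2 genes fell, and RING1 rose. EZH2 (chromosome 7, 148807383 to 148884291, minus strand, GRCh38.p14) had 77.8 and 70.6 CPM in HT29 libraries with VXN, against 108 and 103 CPM with DMSO. Both VXN libraries were below both DMSO libraries, with a log2 fold change of -0.50 ± 0.044 (SE; edgeR adjusted p = 4.12e-16). EZH1 (chromosome 17, 42700275 to 42745040, minus strand), the partner that non-dividing cells are known to keep, had 44.5 and 46.7 CPM with VXN and 25.6 and 24.0 CPM with DMSO. Its groups did not overlap either, and the log2 fold change was 0.88 ± 0.061 (edgeR adjusted p = 2.18e-20), a rise of 83.4%.

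EED (chromosome 11, 86244753 to 86287615, plus strand) had 25.9 and 25.6 CPM in HT29 cells with VXN and 38.8 and 40.7 CPM with DMSO. SUZ12 (chromosome 17, 31937007 to 32001038, plus strand) had 158 and 161 CPM with VXN and 210 and 215 CPM with DMSO. Both core genes fell without overlap of the libraries, EED by 0.62 ± 0.062 and SUZ12 by 0.41 ± 0.036 on the log2 scale (SE; edgeR adjusted p = 5.43e-14 and 3.14e-16). PHF19 (chromosome 9, 120855651 to 120904128, minus strand) had 28.6 and 29.9 CPM with VXN and 64.4 and 65.1 CPM with DMSO. That was the widest fall among the 10 genes, 1.15 ± 0.055 on the log2 scale (SE; edgeR adjusted p = 1.51e-28), or 54.9%. MTF2 (chromosome 1, 93079283 to 93139076, plus strand), of the same Polycomb-like family, had 24.5 and 25.0 CPM with VXN and 37.1 and 36.9 CPM with DMSO, a fall of 0.58 ± 0.062 (SE; edgeR adjusted p = 6.38e-13). The third accessory gene, JARID2 (chromosome 6, 15246069 to 15522042, plus strand), was not called, with 25.0 and 26.4 CPM under VXN and 25.5 and 25.2 CPM under DMSO. Its log2 fold change of 0.02 had a 95% interval of -0.12 to 0.16, and the sign turned to -0.02 with DESeq2-type size factors.

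Among the PRC1 genes RING1 (chromosome 6, 33208500 to 33212716, plus strand) had 56.1 and 54.0 CPM in HT29 cells with VXN and 36.7 and 35.2 CPM with DMSO. It rose by 0.62 ± 0.055 on the log2 scale (SE; edgeR adjusted p = 1.08e-15), and the libraries did not overlap. The other ligase gene, RNF2 (chromosome 1, 185045558 to 185102603, plus strand), had 35.9 and 36.6 CPM with VXN and 41.0 and 37.6 CPM with DMSO, and was not called at a log2 fold change of -0.12 ± 0.059 (SE; edgeR adjusted p = 0.0767). With DESeq2-type size factors RNF2 was called lower, at -0.16 (adjusted p = 0.0191). BMI1 (chromosome 10, 22321099 to 22331706, plus strand) had 58.0 and 59.5 CPM with VXN and 61.3 and 61.3 CPM with DMSO, a log2 fold change of -0.06 ± 0.051 (SE) that was not called. In a fit of the HT29 groups alone BMI1 was called lower, at -0.12 (edgeR adjusted p = 0.00958).

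In all, 7 of the 10 genes were called in HT29 cells, 2 higher and 5 lower, where 60.0% of all genes tested were called, 33.0% higher and 26.9% lower. The median log2 fold change of the 10 genes was -0.27, against 0.05 over all genes tested. Genes of DNA replication and proliferation that E2F factors are known to drive moved beside them. All 19 genes of that list fell in HT29 cells under VXN, with a median of -2.26, and their summed level was 813 to 826 CPM with VXN and 3575 to 3593 CPM with DMSO. TOP2A, the type II topoisomerase of dividing cells, fell to 104 CPM under VXN, against 640 CPM under DMSO. Colon markers moved as well, though not all one way: of 7 tested, 2 rose and 2 fell. KRT20 and CEACAM5 rose, with log2 fold changes of 1.495 ± 0.033 and 3.12 ± 0.084 (SE; edgeR adjusted p = 3.84e-47 and 4.19e-41). VIL1 and EPCAM fell, with log2 fold changes of -0.94 ± 0.041 and -0.20 ± 0.029 (SE; edgeR adjusted p = 1.04e-30 and 1.68e-08). The part of these shifts in the Polycomb values was not tested.

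The promoter letters of 3 of these genes are shown because EZH2 and PHF19 fell and EZH1 rose in the same cells. RefSeq windows of GRCh38.p14, which run from 250 bases before to 50 bases after a start site, were searched on both strands for the E2F-type motif TTTNNCGC. The windows cover chr7:148884242-148884541 for EZH2, chr9:120877139-120877438 for PHF19 and chr17:42744991-42745290 for EZH1, all on the minus strand, printed 5′ to 3′ as transcribed with motif matches in capitals. EZH2 and PHF19 each have another start site in the table, whose window holds no match and is not printed.
EZH2: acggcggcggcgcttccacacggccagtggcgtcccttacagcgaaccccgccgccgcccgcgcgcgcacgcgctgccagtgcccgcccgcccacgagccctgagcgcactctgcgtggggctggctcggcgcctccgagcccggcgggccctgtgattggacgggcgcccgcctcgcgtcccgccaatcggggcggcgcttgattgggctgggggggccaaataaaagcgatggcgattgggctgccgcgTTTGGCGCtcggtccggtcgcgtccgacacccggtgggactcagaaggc
PHF19: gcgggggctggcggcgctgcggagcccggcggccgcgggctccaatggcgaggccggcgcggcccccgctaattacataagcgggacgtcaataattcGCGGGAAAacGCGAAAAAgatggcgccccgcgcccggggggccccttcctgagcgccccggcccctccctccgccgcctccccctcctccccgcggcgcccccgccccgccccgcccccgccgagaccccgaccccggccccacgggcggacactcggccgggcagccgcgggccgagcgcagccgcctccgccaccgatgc
EZH1: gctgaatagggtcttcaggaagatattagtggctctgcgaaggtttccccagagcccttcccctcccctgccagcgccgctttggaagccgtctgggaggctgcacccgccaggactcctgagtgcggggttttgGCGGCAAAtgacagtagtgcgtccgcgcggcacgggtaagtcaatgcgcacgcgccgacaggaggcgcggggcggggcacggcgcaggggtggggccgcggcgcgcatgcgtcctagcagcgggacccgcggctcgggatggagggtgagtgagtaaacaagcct
EZH2 holds the match TTTGGCGC just past its start site. PHF19 has a pair of matches close together on the reverse strand, GCGGGAAA and GCGAAAAA as read here, and EZH1 has GCGGCAAA on the reverse strand. SUZ12 and MTF2 each held 1 match, so 5 of the 10 genes had one in the 14 windows available for them, against 8.23% of 27305 gene symbols and 6.89% of 35116 windows in the whole table. That whole table was not matched to the 10 genes for expression or for GC content, which was 52.3 to 91.0% in their windows. These shares therefore do not test enrichment of the motif. The stricter letters TTTGGCGC were in 1 of the 10 genes, EZH2, and in 0.795% of all symbols. Both EZH1, which rose, and 4 genes that fell in HT29 cells hold the motif, and EED, which fell, does not hold it in this window. A match of letters is not evidence that a factor binds there.

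In t-hESC cells VXN and BIX were each set against the same DMSO libraries, so the values of these comparisons share their controls. EZH2 fell under both compounds. It had 51.8 and 52.7 CPM with VXN, 56.2 and 57.9 CPM with BIX, and 74.9 and 73.1 CPM with DMSO. Every treated library was below both DMSO libraries, and the log2 fold changes were -0.50 ± 0.052 under VXN and -0.38 ± 0.053 under BIX (SE; edgeR adjusted p = 3.51e-12 and 5.15e-08). EZH1 had 32.6 and 34.1 CPM with VXN, 26.8 and 28.0 CPM with BIX, and 24.9 and 26.6 CPM with DMSO. EZH1 rose under VXN by 0.37 ± 0.069 on the log2 scale (SE; edgeR adjusted p = 1.47e-05), while under BIX the log2 fold change was 0.08 ± 0.074 (SE; edgeR adjusted p = 0.482) with a 95% interval of -0.06 to 0.23.

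JARID2, an abundant gene of these cells, had 296 and 330 CPM with VXN, 289 and 285 CPM with BIX, and 279 and 272 CPM with DMSO. It was called higher under VXN, at 0.18 ± 0.035 (SE; edgeR adjusted p = 2.81e-05), and the VXN libraries differed between themselves by more than the lower of them did from DMSO. Under BIX it was not called, at 0.06 ± 0.036. EED had 35.8 and 33.0 CPM under VXN, 28.4 and 28.2 CPM under BIX, and 32.4 and 33.6 CPM under DMSO. EED fell under BIX by 0.22 ± 0.070 on the log2 scale (SE; edgeR adjusted p = 0.0130), with both BIX libraries below both DMSO libraries, and its VXN libraries overlapped those with DMSO. PHF19 had 30.8 and 31.5 CPM with VXN, 35.8 and 35.5 CPM with BIX, and 30.7 and 32.3 CPM with DMSO, and was called higher under BIX, at 0.18 ± 0.066 (SE; edgeR adjusted p = 0.0410). The small BIX calls rest on few libraries: EED lost its call with DESeq2 (adjusted p = 0.121) and without t-hESC DMSO replicate 2 (0.100), BIX replicate 1 (0.0644) or BIX replicate 2 (0.0581). PHF19 lost its call with DESeq2 (adjusted p = 0.121), without a count filter (0.136) and with any 1 of the 8 libraries outside the t-hESC VXN group left out, at edgeR adjusted p of 0.0511 to 0.261.

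The remaining genes were not called under either compound in t-hESC cells. SUZ12 had 43.2 and 39.5 CPM with VXN, 39.1 and 42.8 CPM with BIX, and 41.9 and 42.7 CPM with DMSO, and the groups overlapped. MTF2 ran from 87.5 to 95.4 CPM, RING1 from 30.0 to 34.7 CPM and RNF2 from 37.3 to 43.5 CPM over the 6 t-hESC libraries. BMI1 was low, at 2.31 to 3.17 CPM or 41 to 61 counts a library, and its log2 fold changes had wide 95% intervals, -0.37 to 0.44 under VXN and -0.18 to 0.63 under BIX. Thus 3 of the 10 genes were called under VXN, 2 higher and 1 lower, where 29.0% of all genes were called, 14.5% higher and 14.6% lower. Under BIX 3 were called, 1 higher and 2 lower, where 23.1% of all genes were called, 10.9% higher and 12.2% lower. The median over the 10 genes was 0.02 under VXN and -0.04 under BIX, with 0.0036 and 0.0015 over all genes. Of the 19 proliferation genes 15 fell and 1 rose under VXN, at a median of -0.33, and 14 fell and 1 rose under BIX, at a median of -0.28. The summed level of pluripotency markers was lower under VXN than under DMSO in each library. Of 7 tested 4 fell and 1 rose, NANOG by 0.41 on the log2 scale. The summed level of fibroblast genes was higher under both compounds, with the values given above. Under VXN that rise was carried by THY1, at 856 CPM against 587 CPM with DMSO. Of 6 fibroblast genes tested 1 rose and 2 fell under VXN, at a median of -0.16. Under BIX 3 of them rose and none fell, at a median of 0.35. The part of these shifts in the values of EZH2 and the other called genes was not tested.

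**Figure D2:**
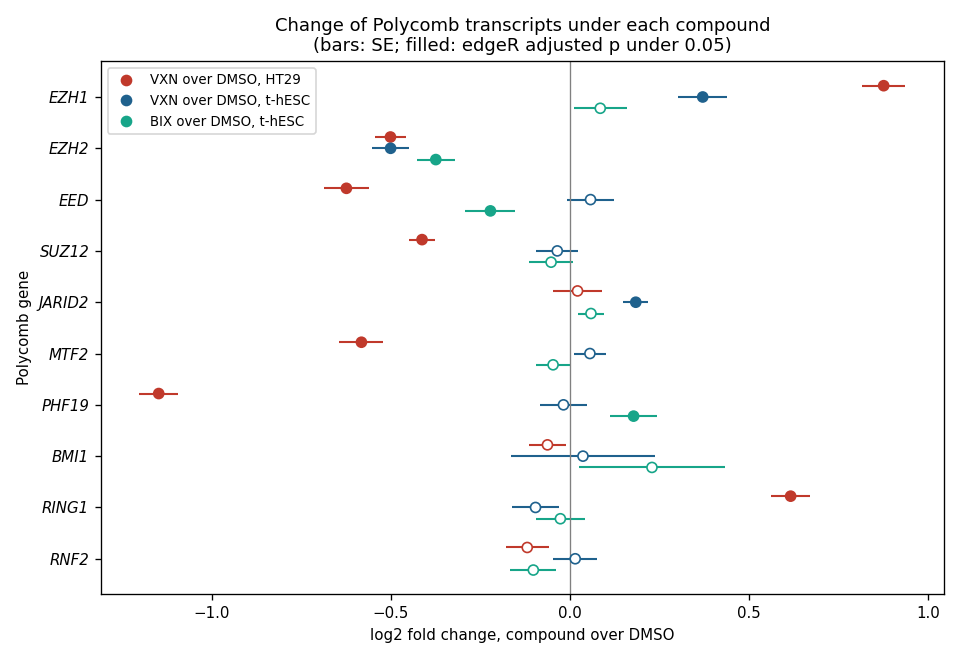
Log2 fold change of each Polycomb gene under a compound against DMSO of the same line (x axis), with genes down the y axis. Bars are standard errors and filled points have an edgeR adjusted p under 0.05. EZH2 lies at -0.50, -0.50 and -0.38 in the 3 comparisons, while PHF19, EED, MTF2, SUZ12 and RING1 leave 0 by 0.41 or more in HT29 cells alone.

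VXN at 10 µM and BIX at 1 µM were also set against each other in t-hESC cells, and since doses differ the difference belongs to the pairs of compound and dose. EZH1, EED and JARID2 were higher with VXN, by 0.29, 0.28 and 0.13 on the log2 scale (edgeR adjusted p = 0.00183, 0.00188 and 0.00696), and PHF19 was lower, at -0.20 (edgeR adjusted p = 0.0264). EZH2 differed by -0.13 with a 95% interval of -0.24 to -0.01 and was not called (edgeR adjusted p = 0.107). It was called with upper-quartile factors, at -0.15 (edgeR adjusted p = 0.0480). In total 4 of the 10 genes were called, 3 higher and 1 lower, against 22.7% of all genes, 11.6% higher and 11.2% lower. Of these calls EZH1 kept its own in each alternative run. JARID2 stood at 0.05 (edgeR adjusted p = 0.463) without VXN replicate 2 and lost its call without BIX replicate 2 (0.0539), EED missed the threshold without VXN replicate 1 (0.0569), and PHF19 missed it without either VXN or either BIX library (0.0617 to 0.128).

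The next comparison asked whether VXN acted alike in the lines, as the log2 fold change in HT29 cells minus that in t-hESC cells. For EZH2 the difference was -0.00042 with a 95% interval of -0.14 to 0.14. For 6 of the other genes the test of the difference was passed. EZH1 rose in both lines and by more in HT29 cells (difference 0.51 ± 0.092, SE; edgeR adjusted p = 4.47e-06). RING1, which rose in HT29 cells and stood at -0.10 in t-hESC cells, differed by 0.71 ± 0.086 (SE; edgeR adjusted p = 1.26e-10). PHF19 differed by -1.13 ± 0.086, EED by -0.68 ± 0.090, MTF2 by -0.64 ± 0.076 and SUZ12 by -0.38 ± 0.069 (SE; edgeR adjusted p at most 4.36e-06). JARID2 had a difference of -0.16 ± 0.078 that was not called (SE; edgeR adjusted p = 0.0854). It was called without t-hESC VXN replicate 1, at -0.24 (edgeR adjusted p = 0.00465), and with DESeq2-type size factors, at -0.20 (0.0291). BMI1 and RNF2 were not called, at -0.10 and -0.13. The count of 6, 2 higher and 4 lower, stands against 43.2% of all genes, 22.9% higher and 20.3% lower. All 19 proliferation genes also fell further in HT29 cells, at a median difference of -1.84.

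Between the lines the largest steps were those of BMI1 and JARID2. BMI1 had 61.3 and 61.3 CPM in HT29 cells with DMSO, against 2.42 and 2.87 CPM in t-hESC cells with DMSO. The log2 difference of 4.52 ± 0.095 (SE; edgeR adjusted p = 8.37e-49) is a 23.0-fold higher level in HT29 cells. JARID2 had 25.5 and 25.2 CPM in HT29 cells, against 279 and 272 CPM in t-hESC cells, a log2 difference of -3.44 ± 0.048 (SE; edgeR adjusted p = 3.04e-59). Under VXN the same steps were 4.42 for BMI1 and -3.61 for JARID2. The level of BMI1 in t-hESC cells was 4.31% of that in HT29 cells under DMSO. JARID2 in HT29 cells was at 9.18% of its t-hESC level.

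SUZ12 was 5.01-fold higher in HT29 cells under DMSO, a log2 difference of 2.33 ± 0.044 (SE; edgeR adjusted p = 1.98e-51), and 1.95 under VXN. MTF2 was lower in HT29 cells, at -1.30 ± 0.049 under DMSO and -1.94 ± 0.055 under VXN (SE; edgeR adjusted p = 2.32e-34 and 1.71e-41). PHF19 was 2.05-fold higher in HT29 cells under DMSO (log2 difference 1.04 ± 0.055, SE; edgeR adjusted p = 9.51e-27), while under VXN the lines stood at 29.2 and 31.1 CPM, a log2 difference of -0.09 that was not called. PHF19 under VXN was called lower with DESeq2-type size factors, at -0.14, and with upper-quartile factors, at -0.18. EZH2 was higher in HT29 cells by 0.51 under DMSO and by 0.51 under VXN. EED turned round, at 0.26 ± 0.060 under DMSO and -0.42 ± 0.067 under VXN (SE; edgeR adjusted p = 5.84e-05 and 7.63e-08). EZH1 and RING1 were not called under DMSO, at -0.06 and 0.10, and were higher in HT29 cells under VXN by 0.45 and 0.81. The sign of RING1 under DMSO turned to -0.01 with upper-quartile factors, and EZH1 under DMSO was called lower with them, at -0.17 (edgeR adjusted p = 0.0206). RNF2 was lower in HT29 cells under VXN, at -0.25 ± 0.062 (SE; edgeR adjusted p = 0.000207). Under DMSO RNF2 was not called, at -0.12 (edgeR adjusted p = 0.0615).

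Of the 10 genes 7 differed between the lines under DMSO, 5 higher and 2 lower in HT29 cells, and 9 did under VXN, 5 higher and 4 lower. These lines are far apart, and 84.4% of all genes differed under DMSO, 38.9% higher and 45.6% lower, and 86.4% under VXN, 40.9% higher and 45.5% lower. The counts of a near-identical copy bear on SUZ12. The pseudogene SUZ12P1 had 296 to 491 counts in t-hESC libraries, or 50.7 to 58.8% of those of SUZ12, and 4.78 to 6.42% in HT29 libraries. With both rows added together the difference between the lines was 1.77 under DMSO and 1.40 under VXN, and the fall under VXN in HT29 cells was -0.40. The readthrough transcript COMMD3-BMI1 shares 10386 bases with BMI1 and had 548 to 643 counts in HT29 libraries and 29 to 58 in t-hESC libraries, and with it added the difference of BMI1 was 4.08 under DMSO. RNF2P1 had 37 to 52 counts in t-hESC libraries and at most 1 in HT29 libraries, and with it added RNF2 was called lower in HT29 cells under DMSO, at -0.19 (edgeR adjusted p = 0.00202). TRAF1 overlaps PHF19 by 1736 bases on the same minus strand and had 659 counts over all 10 libraries. The library kit does not mark strand, which would not part these genes.

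**Figure D3:**
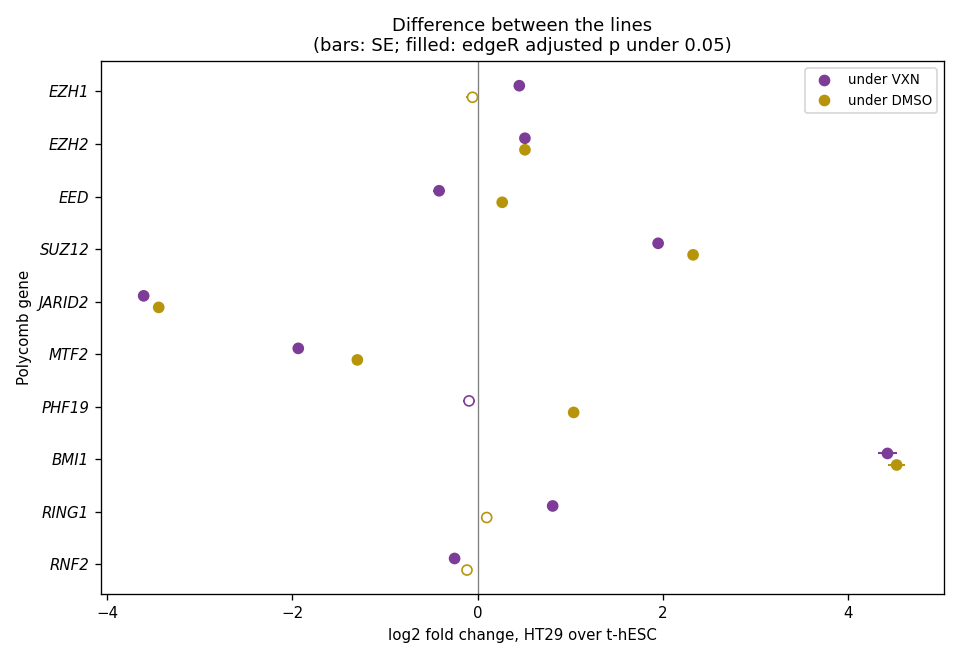
Log2 difference of each Polycomb gene, HT29 over t-hESC (x axis), under VXN and under DMSO, with genes down the y axis. Bars are standard errors, mostly narrower than the points, and filled points have an edgeR adjusted p under 0.05. BMI1 and SUZ12 lie far to the right and JARID2 and MTF2 far to the left under both, PHF19 lies near 0 under VXN and at 1.04 under DMSO, and EED changes side.

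The ratio of paralogs within a library does not depend on its scaling. Counts of EZH2 over EZH1 came to 1.75 and 1.51 in HT29 cells with VXN, against 4.21 and 4.28 with DMSO. In t-hESC cells the ratio was 1.59 and 1.55 with VXN, 2.10 and 2.07 with BIX, and 3.004 and 2.75 with DMSO. Each treated library was below every DMSO library of either line, and the VXN libraries of the lines overlapped. On the log2 scale the mean ratio fell by 1.38 under VXN in HT29 cells, by 0.87 under VXN in t-hESC cells and by 0.46 under BIX. The value of a ratio also carries the lengths of both transcripts, so only its change between groups is read. RNF2 over RING1 was 0.639 and 0.677 in HT29 cells with VXN, against 1.12 and 1.07 with DMSO, and in t-hESC cells it ran from 1.15 to 1.42 over all 6 libraries. BMI1 over PCGF2, its closest paralog, was 0.721 and 0.723 in HT29 cells with VXN, against 0.844 and 0.888 with DMSO, and 0.0250 to 0.0393 in t-hESC cells. PCGF2 itself was at 69.1 to 92.5 CPM over all 10 libraries.

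**Figure D4:**
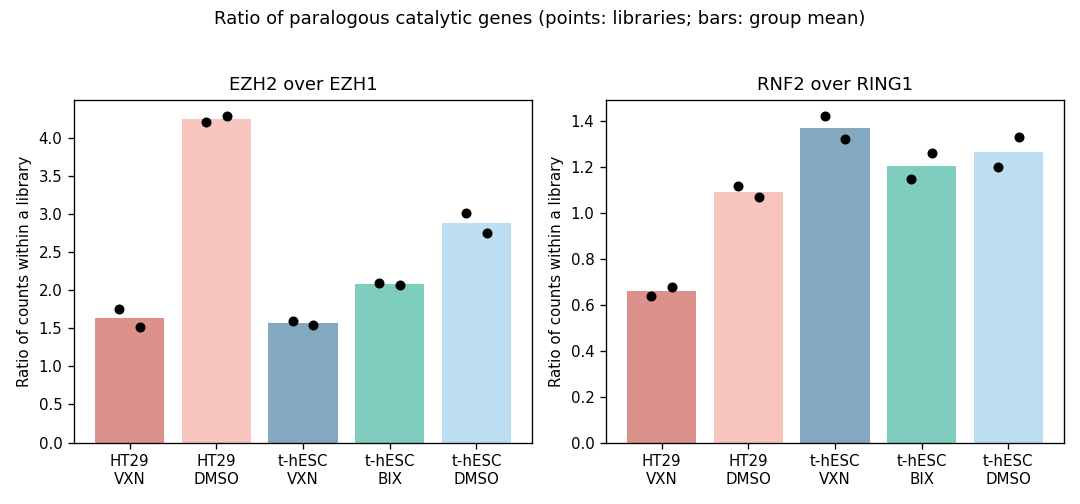
Ratio of counts of EZH2 over EZH1 (left) and of RNF2 over RING1 (right) in each library (y axis, from 0) by group (x axis). Bars are group means and points are libraries. The EZH2 ratio averages 1.63 in HT29 cells with VXN against 4.24 with DMSO, and 1.57 and 2.08 in t-hESC cells with VXN and BIX against 2.88 with DMSO. The RNF2 ratio averages 0.658 in HT29 cells with VXN against 1.09 with DMSO.

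Other PRC2 subunits were read from a list of 7 genes, of which 6 passed the filter and EZHIP, a PRC2 inhibitor gene, did not. In HT29 cells under VXN 4 fell and 1 rose, with a median of -0.36, where 60.0% of all genes were called. RBBP7 and RBBP4, the histone binding subunits, fell by 1.13 and 0.66 on the log2 scale, and AEBP2, a partner of JARID2 in PRC2, fell by 0.50. PHF1, the third Polycomb-like gene beside MTF2 and PHF19, rose by 1.20 ± 0.061 (SE; edgeR adjusted p = 7.27e-27), to 51.4 CPM under VXN against 22.4 CPM under DMSO. In t-hESC cells under VXN 4 of the 6 rose and 2 fell, at a median of 0.44, where 29.0% of all genes were called, with PHF1 at 0.48, AEBP2 at 0.40, EPOP at 0.48 and LCOR at 0.54. Under BIX 2 rose and 2 fell, at a median of 0.0026, where 23.1% of all genes were called, with LCOR at 0.52 and AEBP2 at 0.23 among those that rose. The difference of VXN effects between the lines was passed by all 6, 5 lower and 1 higher in HT29 cells, where 43.2% of all genes passed, with RBBP7 at -1.01, AEBP2 at -0.90 and PHF1 at 0.72.

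The counts in the next 3 lists stand against 60.0% of all genes called in HT29 cells under VXN, 29.0% in t-hESC cells under VXN and 23.1% under BIX, and where they lie near these shares they are no result about the list. Among 11 further genes of canonical PRC1, 6 rose and 2 fell in HT29 cells under VXN, at a median of 0.20. The chromodomain genes CBX6 and CBX2 parted, with CBX6 at 0.61 ± 0.053 and CBX2 at -1.28 ± 0.083 (SE; edgeR adjusted p at most 2.14e-16). In t-hESC cells 5 rose and 2 fell under VXN, and 2 rose and none fell under BIX, PHC3 by 0.62 and PHC1 by 0.14. Between the lines under DMSO PHC1, a polyhomeotic gene, stood at 49.4 CPM in HT29 cells and 747 CPM in t-hESC cells. Of 15 genes of variant PRC1, which lacks the chromodomain subunits, 5 rose and 3 fell in HT29 cells under VXN, 5 rose and 2 fell in t-hESC cells under VXN, and 4 rose and 2 fell under BIX. KDM2B, which brings a variant PRC1 to CpG islands, fell by 0.62 in HT29 cells, and BCORL1 and MGA rose by 0.52 and 0.49 under BIX. Among 6 genes of enzymes that oppose Polycomb marks 2 rose and none fell in HT29 cells under VXN, 1 rose and 2 fell in t-hESC cells under VXN, and 2 rose and none fell under BIX. KDM6B, an H3K27 demethylase gene, was at 97.6 CPM in HT29 cells with VXN and 36.4 CPM with DMSO (log2 fold change 1.42 ± 0.051, SE; edgeR adjusted p = 4.09e-35). KDM6B also rose in t-hESC cells, by 0.35 under VXN and 0.55 under BIX, and KDM6A rose by 0.48 in HT29 cells.

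**Figure D5:**
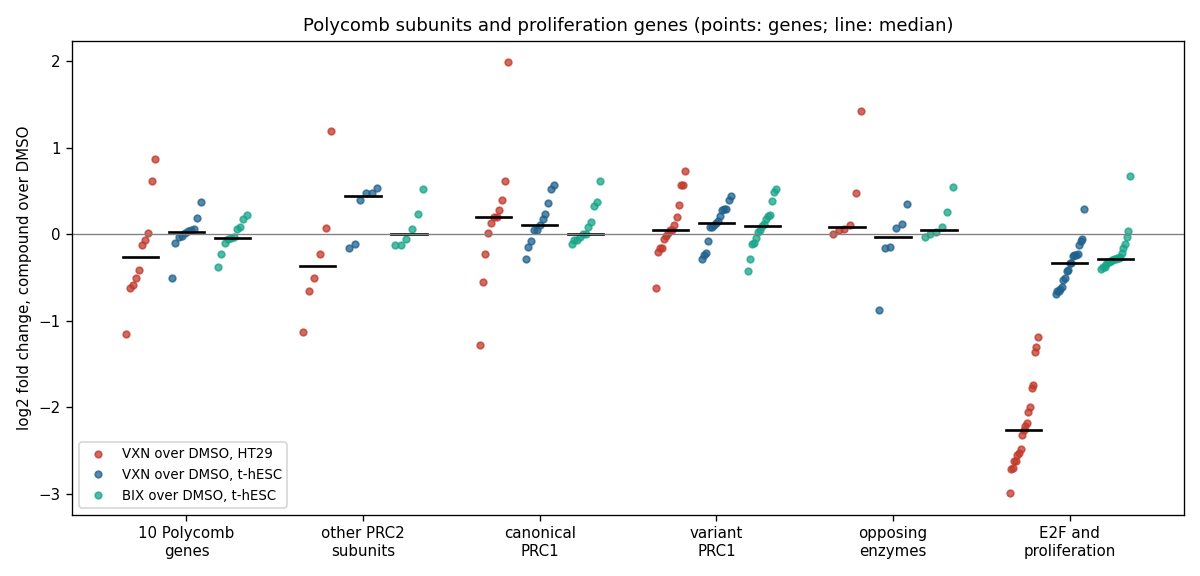
Log2 fold change against DMSO (y axis) of each tested gene in 6 gene lists (x axis), for VXN in HT29 cells, VXN in t-hESC cells and BIX in t-hESC cells. Points are genes and black lines are list medians. The proliferation genes lie below 0 in HT29 cells at a median of -2.26, and the 10 Polycomb genes spread from -1.15 to 0.88 there.

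As a sum, classic Polycomb targets were lower in t-hESC cells than in HT29 cells, but the single genes split in direction. Of 23 such genes 10 did not pass the filter, among them GATA4, SOX17, TBXT and HAND1. The summed level of all 23 was 263 CPM in both HT29 libraries with VXN and 200 to 217 CPM with DMSO. Over the t-hESC libraries it was 19.5 to 27.8 CPM. A few genes carried the HT29 sum, such as CDKN2A at 89.6 CPM and GATA6 at 58.7 CPM with DMSO. Between the lines under DMSO 6 of the 13 tested were higher in HT29 cells and 6 lower, where 84.4% of all genes differed. The median log2 difference was -0.63. Under VXN 6 were higher and 7 lower in HT29 cells, at a median of -2.56, where 86.4% of all genes differed. The median of 13 genes is the value of 1 gene, by its levels PAX7 in both comparisons. PAX7 averaged 0.293 CPM in HT29 cells and 0.459 CPM in t-hESC cells with DMSO, and 0.120 and 0.722 CPM with VXN. The step between these medians is thus that of a gene near the level a count of 0 allows. In t-hESC cells 1 of the 13 tested rose and 1 fell under VXN (LHX2 by 0.43 and PAX6 by 0.51 on the log2 scale), where 29.0% of all genes were called. Under BIX LHX2 fell by 0.38, and CDX2 was called higher at 0.168 CPM, under the level a count of 0 allows, against 0 in DMSO libraries. In HT29 cells with VXN CDKN2B, which encodes the cell cycle inhibitor p15, had 122 to 124 CPM, against 22.6 to 23.0 CPM with DMSO, a log2 fold change of 2.43 ± 0.054 (SE; edgeR adjusted p = 1.12e-46). Its neighbour CDKN2A fell by 0.47, so these genes of the locus that BMI1 is known to repress moved in opposite directions while BMI1 was not called. Of the 13 tested 2 rose and 4 fell in HT29 cells, where 60.0% of all genes were called, at a median of -0.23, with GATA6 and ISL1 at -0.71 and -1.01.

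Genes whose pattern lay nearest to EZH2 were sought among 12919 genes that averaged 4 CPM or more, by the distance over 4 log2 values (BIX and VXN in t-hESC cells, VXN in HT29 cells, and the lines under DMSO). The nearest were CCND3 at a distance of 0.143, FIBP, PAK6, BAG1 and ORC5. CCND3, the cyclin D3 gene, stood at -0.37, -0.42, -0.41 and 0.44 in that order. Nearest to EZH1 were BTAF1 at 0.111, CLK3, PELI2, MSTO2P and NSUN5P1. None of the other 9 Polycomb genes was among the 5 nearest to EZH2 or to EZH1.

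The authors' deposited table for VXN in HT29 cells called 7 of the 10 genes, the same 7 as here in the same direction. EZH1 only just passed there, at 0.68 ± 0.33 (SE; adjusted p of 0.0446 in the authors' deposited table), against 0.88 ± 0.061 here. SUZ12 had an adjusted p of 0.0138 in the authors' deposited table. For VXN in t-hESC cells the authors' deposited table called EZH2 only. That table gave EZH1 a log2 fold change of 0.06 with an adjusted p of 0.662 and JARID2 0.09 with 0.618. For BIX the authors' deposited table called EZH2 only, at -0.33 with an adjusted p of 0.00200, and not EED or PHF19. For the lines under VXN the authors' deposited table called 9, and 8 of those have the same call and direction here. PHF19 was called there alone, at -0.21, and EZH1 was called here alone.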

How the data were processed

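Total RNA of 10 cultures was made into libraries with the TruSeq RNA v2 kit, per the labels' protocols. Tools named in the submitters' processing notes are fastp 0.20.1, FastQC 0.11.9, STAR and DESeq2 1.34.0, beside GRCh38 and hg38, without saying which did what. How reads were assigned to genes, overlapping genes and near-identical copies included, was not stated, and the annotation release likewise was not given in the sources used here. The authors deposited a table of raw counts, whole numbers whose totals differ between libraries, and 4 tables of their own comparisons. The authors' tables hold log2 fold changes, their standard errors, and p-values with adjusted p-values. Rows of 1181 repeat families (3.52 to 5.64% of counts) stayed out of library sizes, and 4 columns that match no sample were not used. CPM were computed here from the deposited counts.

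Tests used edgeR 4.0.16 (R 4.3.3) with TMM factors, the filterByExpr filter at a minimum count of 10, and the robust quasi-likelihood F test in 1 fit of 10 libraries and 5 groups. This left 5 residual degrees of freedom beside a median of 56.7 prior ones, and the common biological coefficient of variation was 0.0207. Called means a Benjamini-Hochberg adjusted p under 0.05 over 22495 genes. Standard errors come from the F statistic and intervals are at 95%. In t-hESC cells each compound was set against DMSO and VXN against BIX. In HT29 cells VXN was set against DMSO. The VXN effects of the lines were set against each other, and so were the lines under each shared treatment, which makes 7 comparisons. The fit was tested on simulated data with known changes.

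The 10 members and all gene lists were chosen with earlier results of these data known. All 10 are named in each comparison. From each list up to 4 called genes with the smallest p per comparison may be named, with 1 gene that the rule names not reported here, and the nearest patterns are the 5 genes at the smallest distance. Libraries of a group correlated at 0.991 to 0.996 on log CPM, and none were identical. Positions and promoter windows come from RefSeq tables of GRCh38.p14, and all 10 genes matched. The alternatives changed the scaling (DESeq2-type size factors or upper-quartile factors), the tool (DESeq2 1.42.0), the filter (none, or a minimum count of 50) or the samples (the compared groups alone, or 1 library left out), or used the replicate number as a block. Adding the counts of near-identical copies and a readthrough gene was chosen after seeing the data.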

Additional observations from a re-analysis of the deposited data

Results flagged for a closer look

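The response to VXN differed between the lines for 6 of the 10 Polycomb genes, by the edgeR test of the difference itself (the log2 fold change in HT29 cells minus that in t-hESC cells), where 43.2% of all genes passed the same test. RING1 differed by 0.71 and EZH1 by 0.51, and EED by -0.68, MTF2 by -0.64, SUZ12 by -0.38 and PHF19 by -1.13. All 6 kept this call under each alternative run, the omission of each library included. Groups of 2 libraries allow no check for single outlying samples.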

How the results depend on the processing

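Of 70 results of single Polycomb genes (10 genes in 7 comparisons) 39 were called, and 34 of these kept their call under every alternative. The exceptions were EED and PHF19 under BIX, and EED, JARID2 and PHF19 for VXN against BIX, in all of which the direction held. None of 702 alternative values of called results turned its sign. The authors' own tables are not among these alternatives. They did not call EZH1 or JARID2 under VXN in t-hESC cells, nor EZH1 between the lines under VXN. With DESeq2 1 of the 10 genes was called under BIX and 2 for VXN against BIX, in place of 3 and 4, and over all genes it called 3158 under BIX, 4086 under VXN in t-hESC cells and 2982 for VXN against BIX, in place of 5199, 6531 and 5110. Leaving out 1 library gave 1 to 3 called Polycomb genes under BIX and 2 to 4 for VXN against BIX. Where a group was left with 1 library it was assumed to vary like the others. The stricter promoter motif left 1 gene in place of 5. The replicate numbers showed no sign of pairing the libraries, with correlations of deviations from -0.032 to 0.026. Counting error weighs heavily in these deviations, so a weak pairing could go unseen. With the replicate block 69 of the 70 results kept their side of the threshold, the other being RNF2 between the lines under DMSO, called at -0.11 (edgeR adjusted p = 0.0488).

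Signs turned only for results that were not called, and the cause was not tested. With upper-quartile factors these were RNF2 under VXN in t-hESC cells (-0.0090), SUZ12 for VXN against BIX (-0.0063), the EZH2 difference between the lines (0.022) and RING1 between the lines under DMSO (-0.015). JARID2 under VXN in HT29 cells turned with DESeq2-type size factors (-0.016), DESeq2 (-0.016), no count filter (-0.015) and only the groups compared (-0.036). The EZH2 difference turned with a minimum count of 50 (0.012). With copies merged BMI1 turned under VXN in t-hESC cells (-0.083) and in the difference (0.065). Over the omitted libraries the ranges under BIX were -0.12 to 0.0055 for MTF2, -0.083 to 0.0092 for RING1 and -0.12 to 0.015 for SUZ12. Under VXN in t-hESC cells they were -0.20 to 0.25 for BMI1, -0.023 to 0.041 for RNF2, -0.012 to 0.11 for MTF2, -0.058 to 0.012 for PHF19, -0.00020 to 0.11 for EED and -0.099 to 0.028 for SUZ12. JARID2 in HT29 cells ran from -0.023 to 0.053. For VXN against BIX SUZ12 ran from -0.051 to 0.082 and BMI1 from -0.43 to 0.023, and for the difference BMI1 ran from -0.32 to 0.13 and EZH2 from -0.080 to 0.063. Upper-quartile factors moved the median of all genes between the lines under DMSO by -0.11. BMI1 in t-hESC cells rests on 41 to 61 counts a library, which limits what could be detected there.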
